A study of Mus musculus with 12 samples.

Results

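Transcripts of 10 genes were described: the alpha-secretases Adam10 and Adam17, the beta-secretase Bace1, the gamma-secretase parts Psen2, Ncstn, Aph1a, Aph1b and Psenen, and the App paralogues Aplp1 and Aplp2. They were taken by symbol from the 24421 genes of the count table, and all 10 were found and passed the expression filter, as did 13065 genes in all. The tissue was hippocampus of mice aged 2 months, in 12 libraries. Each of 4 genotypes had 3 libraries: wild type (WT), 5xFAD, p75NTRko, and 5xFAD/p75NTRko, which carries both and is called the double genotype here. 5xFAD mice express mutant human transgenes of familial Alzheimer's disease, driven by the Thy1 promoter and so chiefly in neurons. p75NTRko denotes loss of the p75 neurotrophin receptor, which Ngfr encodes. Every mouse, WT included, had been injected with BrdU, a label of dividing cells. The labels call the libraries biological replicates without saying whether each is 1 mouse or a pool, so p-values measure the spread between these libraries.

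Amyloid precursor protein (App) is a membrane protein cut in competing ways. Alpha-secretase, a metalloprotease activity held mainly by Adam10 and also by Adam17, cuts inside the amyloid-beta stretch and releases the soluble ectodomain. Beta-secretase, the aspartyl protease Bace1, cuts at its start, and gamma-secretase then cuts the remaining stub within the membrane to free amyloid-beta. Gamma-secretase is built from a presenilin such as Psen2, nicastrin (Ncstn), an APH-1 protein (Aph1a or Aph1b) and Pen-2 (Psenen). Aplp1 and Aplp2 are cut by the same enzymes but lack the amyloid-beta sequence. The p75 receptor is itself a substrate of Adam17 and gamma-secretase.

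None of the 10 genes passed an adjusted p of 0.05 in any of 7 tests by edgeR's quasi-likelihood method, and none did by DESeq2. The 3 genes with the smallest p in the test of any difference among genotypes were Aph1b, highest in 5xFAD at 26.0 CPM ± 3.04 (SD, n = 3) against 17.2 to 19.8 CPM in the other genotypes, Aph1a, and Adam17. Aph1a was lowest in 5xFAD/p75NTRko at 61.6 CPM ± 3.19 against 75.6 ± 4.0 in WT (SD, n = 3 each). Adam17 was lowest there too, at 59.8 CPM ± 2.55 against 75.3 ± 5.17 with the p75NTRko label (SD, n = 3 each). CPM are gene counts scaled to a common library size. Reads came from transcript 3′ ends, so CPM has no length term. The tissue was sampled in bulk, so fewer cells of a type and less RNA per cell cannot be told apart.

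The libraries held 4316739 to 6683613 gene-assigned counts, and 3 counts, the level below which no fold was read, equalled 0.445 to 0.689 CPM. As a check of labels, Thy1 was 1594 to 4014 CPM in the 6 transgene carriers and 687 to 938 CPM in the other 6. Its fitted log2 fold change passed in 5xFAD against WT (1.96, adjusted p 0.0369, edgeR). In 5xFAD/p75NTRko it did not pass, at 1.86 against WT (adjusted p 0.0614, edgeR) and 2.05 against p75NTRko (adjusted p 0.110, edgeR). Large differences could thus miss the threshold in these tests. Reads assigned to App were 1064 CPM ± 42.3 in 5xFAD, 1058 ± 97.8 in 5xFAD/p75NTRko, 963 ± 48.1 where p75NTRko was the label and 887.6 ± 161 in WT (SD, n = 3 each), with an adjusted p of 0.574 in edgeR's test of any difference. Ngfr went against its label, with 5.94 to 10.5 CPM in the 6 receptor-labelled libraries and 0.166 to 1.94 CPM in the rest. The labels do not say which part of the gene was deleted, and reads from the 3′ end check nothing upstream of it. The receptor genotypes are therefore named only as labelled. Xist was 355 to 448 CPM in all WT libraries, all 5xFAD/p75NTRko libraries and p75NTRko replicate 1, and 1.52 to 3.50 CPM in all 5xFAD libraries and p75NTRko replicates 2 and 3, so 5xFAD could not be told apart from that class in comparisons with WT or 5xFAD/p75NTRko. Of 10 hippocampal markers, 9 exceeded 3 counts in every library. The 10 summed to 702 to 1087 CPM in WT, below 5xFAD (1174 to 1508) and p75NTRko-labelled libraries (1241 to 1368) without overlap. In 5xFAD/p75NTRko they summed to 894 to 1312 CPM, which overlapped all other genotypes. Markers of choroid plexus, which adjoins the hippocampus, summed to 174 to 7205 CPM, with 5xFAD/p75NTRko replicate 1 at 7154 and its partners at 174 and 356. Striatal Drd2 and 4 haemoglobin genes were listed at 0 in every library.

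The alpha-secretases came first. Adam10 lies at chr9:70678997-70780229 on the plus strand (GENCODE M21, GRCm38, the assembly called mm10). Its level was 55.8, 38.4 and 63.6 CPM across WT, 54.8, 53.1 and 53.1 across 5xFAD, 47.6, 51.9 and 56.4 with the p75NTRko label and 50.4, 49.8 and 50.4 in the double genotype. WT spanned the whole range, so that WT overlapped every other genotype, while the 5xFAD/p75NTRko libraries sat just under the 5xFAD libraries without overlap. The fitted log2 fold change, called log2 difference from here on, was -0.10 (SE 0.147, adjusted p 0.990, edgeR). In fold terms, the 95% intervals of Adam10 over the 5 pairwise comparisons reached from 0.753 to 1.27.

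Adam17, also known as TACE for its release of tumour necrosis factor, lies at chr12:21323509-21373632 on the minus strand. It measured 62.1, 79.9 and 68.7 CPM across WT, 63.9, 70.7 and 60.5 across 5xFAD, 78.5, 69.3 and 78.1 with the p75NTRko label and 60.3, 57.0 and 62.0 in the double genotype. All 3 of the last lay below every WT and every p75NTRko-labelled library, and they overlapped 5xFAD. The margin to WT was as small as 62.05 against 62.07 CPM. The log2 difference in 5xFAD/p75NTRko against p75NTRko was -0.33 (SE 0.110, unadjusted p 0.00884, adjusted p 0.695, edgeR). Oligodendrocyte markers did not overlap between these genotypes, at 4024 to 5201 CPM in 5xFAD/p75NTRko and 6230 to 7587 CPM with the p75NTRko label, and choroid plexus markers summed to 7154, 174 and 356 CPM against 4396 to 7205 CPM. The p75NTRko-labelled libraries mix Xist classes, while all 5xFAD/p75NTRko libraries are in the high class. The part of these in the result was not tested. Adam17 ends tail to tail with Iah1 on the other strand, with 311 shared bases, and the labels do not say whether strand was used in counting. Iah1 was 7.27 CPM ± 0.645 in 5xFAD/p75NTRko against 7.68 ± 0.317 with the p75NTRko label (SD, n = 3 each). WT replicate 2 held both the lowest Adam10 and the highest Adam17 of all libraries, which gave an Adam17 to Adam10 ratio of 2.08 there, against 1.08 to 1.65 in the other 11.

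Bace1, the enzyme that starts amyloid-beta release, lies at chr9:45838580-45864399 on the plus strand and shares 975 bases at its 3′ end with Rnf214 on the other strand. It was 54.5, 60.6 and 49.4 CPM across WT, 51.5, 55.3 and 59.7 across 5xFAD, 55.7, 60.6 and 57.0 with the p75NTRko label and 62.3, 47.9 and 55.5 in the double genotype. All 4 genotypes overlapped, and their means lay within 54.8 and 57.8 CPM. Its comparison of smallest p, p75NTRko against WT, had a log2 difference of 0.07 (SE 0.117, adjusted p 0.831, edgeR). Over the 5 pairwise comparisons the 95% intervals reached from 0.805-fold to 1.25-fold, so a change of 1.5-fold lay outside each of them. Bace2, a related protease, was scarce at 1.65 to 3.67 CPM in genotype means.

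The gamma-secretase parts differed more in level than across genotypes. Mean CPM over the 12 libraries was 69.0 for Aph1a, 38.1 for Psen2, 20.3 for Aph1b, 10.1 for Psenen and 3.81 for Ncstn. Psen2, a catalytic presenilin, lies at chr1:180227004-180263438 on the minus strand. It had 37.2, 40.8 and 38.8 CPM across WT, 37.0, 41.4 and 37.2 across 5xFAD, 36.1, 35.4 and 35.3 with the p75NTRko label and 43.6, 38.5 and 36.2 in the double genotype. All 3 p75NTRko-labelled libraries lay below the other 9, by a margin as small as 36.1 against 36.2 CPM, and the other genotypes overlapped each other. The log2 difference in 5xFAD/p75NTRko against p75NTRko was 0.15 (SE 0.109, adjusted p 0.869, edgeR). The 95% intervals of Psen2 over the pairwise comparisons reached from 0.779-fold to 1.30-fold.

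Nicastrin, which holds substrates at the enzyme's mouth, was the scarcest member. Ncstn (chr1:172066013-172082795, minus strand) had 29, 16 and 29 counts across WT, 39, 18 and 16 across 5xFAD, 19, 12 and 27 with the p75NTRko label and 17, 20 and 22 in the double genotype. That was 2.59 to 6.61 CPM, and 5xFAD replicate 1 stood above the other 11. The log2 difference in 5xFAD/p75NTRko against 5xFAD was -0.39 (SE 0.340, adjusted p 0.988, edgeR), and it was 0.03 without 5xFAD replicate 1. Its 95% intervals over pairwise comparisons reached from 0.461-fold to 1.88-fold. These are not limits of detection, and changes inside the interval of a comparison were not excluded for Ncstn.

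Psenen, the smallest subunit, which triggers presenilin maturation, lies at chr7:30561863-30563627 on the minus strand. It had 10.4, 7.13 and 10.8 CPM across WT, 10.3, 11.8 and 9.03 across 5xFAD, 10.5, 10.6 and 10.8 with the p75NTRko label and 7.31, 12.1 and 10.2 in the double genotype, on 43 to 73 counts each. All genotypes overlapped. The smallest p for Psenen was that of the interaction (how far the transgene's difference itself differed with the receptor label), at -0.26 on the log2 scale (SE 0.306, adjusted p 0.813, edgeR). It ranged from -0.08 without 5xFAD/p75NTRko replicate 1 to -0.43 without 5xFAD/p75NTRko replicate 2, and was -0.09 without WT replicate 2 and -0.16 without 5xFAD replicate 2.

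The APH-1 genes, whose products form the scaffold of gamma-secretase, had the smallest overall p-values of the members. Aph1a lies at chr3:95893969-95898288 on the plus strand. Aph1b, at chr9:66775202-66795490 on the minus strand, has a close copy, Aph1c, at chr9:66814994-66834726 on the same strand. Their promoters from RefSeq (GRCm38.p6, 250 bases before to 50 after a start) are shown because 2 of these genes had the smallest p-values and Aph1b and Aph1c are close copies that reads must tell apart. Capitals mark GC boxes (GGGCGG or CCGCCC) and CCAAT boxes (CCAAT or ATTGG), searched on both strands.
Aph1a promoter, chr3:95893671-95893970, plus strand: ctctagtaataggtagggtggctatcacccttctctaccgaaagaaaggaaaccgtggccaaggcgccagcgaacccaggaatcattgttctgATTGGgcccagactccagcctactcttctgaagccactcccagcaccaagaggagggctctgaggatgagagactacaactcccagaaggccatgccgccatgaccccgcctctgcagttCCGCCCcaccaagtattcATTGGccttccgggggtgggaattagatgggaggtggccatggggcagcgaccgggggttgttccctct
Aph1b promoter, chr9:66795374-66795673, minus strand: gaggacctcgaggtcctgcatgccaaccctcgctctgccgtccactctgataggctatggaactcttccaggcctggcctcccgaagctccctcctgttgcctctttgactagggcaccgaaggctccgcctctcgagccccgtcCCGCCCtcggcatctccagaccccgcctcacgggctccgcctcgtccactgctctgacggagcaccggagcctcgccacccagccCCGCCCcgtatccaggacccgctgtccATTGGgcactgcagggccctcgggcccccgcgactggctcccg
Aph1c promoter, chr9:66834657-66834956, minus strand: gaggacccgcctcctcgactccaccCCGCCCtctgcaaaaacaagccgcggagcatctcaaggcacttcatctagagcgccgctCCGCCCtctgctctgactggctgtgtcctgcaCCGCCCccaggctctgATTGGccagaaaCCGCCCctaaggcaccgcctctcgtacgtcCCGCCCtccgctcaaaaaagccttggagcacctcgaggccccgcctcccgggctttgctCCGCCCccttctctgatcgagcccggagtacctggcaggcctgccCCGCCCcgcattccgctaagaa
Aph1a held 1 GC box and 2 CCAAT boxes, Aph1b 2 and 1, and Aph1c 7 and 1. GC boxes were in 35.7% and CCAAT boxes in 37.4% of the 32851 promoters of the table. Among members, 9 matched the table, Bace1 being the one without an entry, with 11 promoters, of which 7 held a GC box and 5 a CCAAT box. Median GC content was 65.7% over the 11 and 52.7% over all promoters. The TATAAA motif (or TTTATA) was in 13.6% of all promoters and in 0 of the 11 member promoters.

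Aph1a was 73.6, 80.2 and 73.0 CPM across WT, 72.6, 69.2 and 72.1 across 5xFAD, 65.5, 71.6 and 65.5 with the p75NTRko label and 63.0, 63.8 and 58.0 in the double genotype. Every WT library exceeded every library of the other genotypes, and every 5xFAD/p75NTRko library lay below all other 9. How many of all genes show such an order was not counted. 5xFAD and p75NTRko-labelled libraries lay between and overlapped each other. The log2 difference of Aph1a in 5xFAD/p75NTRko against WT was -0.30 (SE 0.0900, 95% interval -0.49 to -0.10, unadjusted p 0.00514, adjusted p 0.425, edgeR). It was -0.32 to -0.25 under all 19 alternatives, with an adjusted p of 0.176 to 0.938 (edgeR or DESeq2). Leaving out a 5xFAD or p75NTRko library could hardly move it, since each genotype has its own mean. Nor could the Xist class as a term, which does not differ between these groups. Both groups belonged to the high Xist class. Choroid plexus markers summed to 7154, 174 and 356 CPM in the 5xFAD/p75NTRko replicates that had 63.0, 63.8 and 58.0 CPM of Aph1a, and to 2389 to 5891 CPM in WT. Oligodendrocyte markers summed to 4024 to 5201 CPM in 5xFAD/p75NTRko and 4016 to 6980 CPM in WT, and thalamic markers to 165 to 621 and 330 to 513 CPM. Striatal markers did not overlap, at 141 to 181 CPM in 5xFAD/p75NTRko and 211 to 271 CPM in WT, and every WT library exceeded the other 9, as for Aph1a (157 to 182 CPM in 5xFAD and 153 to 170 CPM with the p75NTRko label). Their part in the result was not tested. Aph1a shares 521 bases at its 3′ end with Car14 on the other strand. Car14 was 10.5 CPM ± 2.40 in WT and 6.55 ± 4.41 in 5xFAD/p75NTRko libraries (SD, n = 3 each). Reads from the shared bases cannot be told apart if strand was not used. Reads set aside as ambiguous were 0.226% to 0.291% of all reads over the libraries.

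Aph1b was 14.9, 19.8 and 24.7 CPM across WT, 24.7, 29.4 and 23.7 across 5xFAD, 15.9, 17.0 and 18.7 with the p75NTRko label and 21.8, 17.7 and 15.4 in the double genotype. The 5xFAD libraries lay above all 6 receptor-labelled libraries and overlapped WT only through WT replicate 3. The log2 difference in 5xFAD/p75NTRko against 5xFAD was -0.51 (SE 0.185, unadjusted p 0.0158, adjusted p 0.812, edgeR), and it ranged from -0.71 to -0.34 over 19 alternatives. In that comparison the Xist classes differ throughout, and -0.34 was the value with the Xist class as a term. Only p75NTRko holds both classes, so that term rests on its replicate 1 against replicates 2 and 3. Within the low class, 5xFAD libraries had 23.7 to 29.4 CPM of Aph1b and p75NTRko replicates 2 and 3 had 17.0 and 18.7. Within the high class, Aph1b was 15.4 to 21.8 CPM in 5xFAD/p75NTRko, 14.9 to 24.7 in WT and 15.9 in p75NTRko replicate 1. Choroid plexus markers summed to 317 to 1914 CPM in 5xFAD and 174 to 7154 CPM in 5xFAD/p75NTRko, and oligodendrocyte markers to 5214 to 7500 and 4024 to 5201 CPM, and their part in the result was not tested.

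Aph1b and Aph1c were compared because reads that align to several places were not counted. The coding sequences of transcripts Aph1b-201 and Aph1c-202 were 96.3% identical, against 63.8% for Aph1a and Aph1b. In the last 500 bases, where 3′ reads mostly fall, 19.7% of 50-base windows of Aph1b-201 also occurred in Aph1c-202, and none of Aph1c-202 occurred in Aph1b-201. RefSeq lists each of the 2 symbols as a synonym of the other, so the gene behind each row depends on the annotation used, which the labels do not give. Aph1c was 8.80, 13.1 and 10.4 CPM across WT, 11.9, 8.44 and 4.83 across 5xFAD, 10.2, 11.02 and 8.76 with the p75NTRko label and 10.8, 6.42 and 7.20 in the double genotype, with all genotypes overlapping. The sum of Aph1b and Aph1c was 28.6 to 37.9 CPM in 5xFAD and 22.6 to 32.6 CPM in 5xFAD/p75NTRko, which overlapped. Aph1b made up 26.7% ± 2.76 of the CPM of Aph1a and Aph1b across 5xFAD, 20.6% ± 4.26 across WT, 20.3% ± 1.66 with the p75NTRko label and 22.8% ± 2.53 in the double genotype (SD, n = 3 each). These sums and shares were formed after the values were seen and were not tested.

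**Figure D1:**
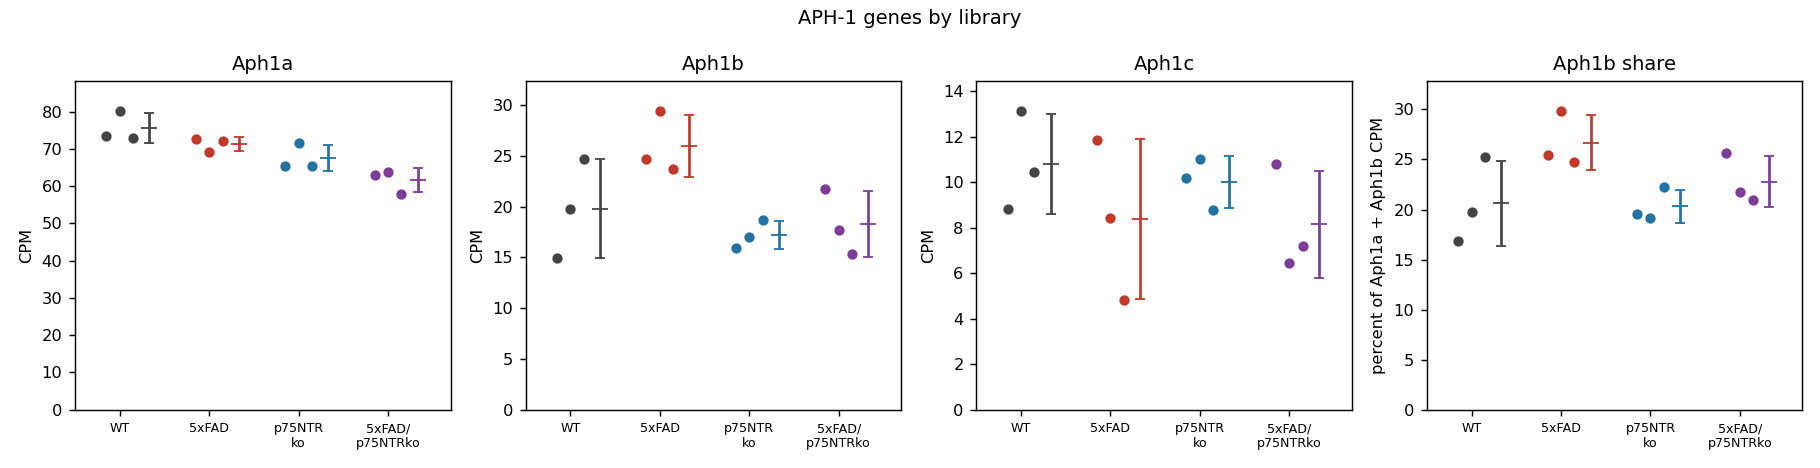
CPM of Aph1a, Aph1b and Aph1c, and Aph1b as a percentage of Aph1a plus Aph1b, by genotype; points are libraries and bars the mean ± SD of 3. The 5xFAD/p75NTRko libraries of Aph1a sit at 58.0 to 63.8 CPM, below the other 9, and the 5xFAD libraries of Aph1b at 23.7 to 29.4 CPM, above all 6 receptor-labelled libraries.

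The App paralogues were the most abundant members, with mean levels of 232 CPM for Aplp1 and 218 CPM for Aplp2 over the 12 libraries. Aplp1, found chiefly in the nervous system, lies at chr7:30434982-30445535 on the minus strand. It was 242, 251 and 221 CPM across WT, 229, 220 and 238 across 5xFAD, 217, 249 and 234 with the p75NTRko label and 212, 236 and 239 in the double genotype. Genotypes overlapped throughout, and the log2 difference in 5xFAD/p75NTRko against WT, its comparison of smallest p, was -0.06 (SE 0.0884, adjusted p 0.859, edgeR). The 95% intervals of Aplp1 over the pairwise comparisons reached only from 0.844-fold to 1.14-fold.

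Aplp2, the widely expressed paralogue, lies at chr9:31149557-31211815 on the minus strand. It was 226, 240 and 196 CPM across WT, 230, 232 and 233 across 5xFAD, 213, 208 and 190 with the p75NTRko label and 223, 216 and 210 in the double genotype. The 5xFAD libraries lay close together and above every receptor-labelled library, while WT spanned both. Its smallest p was that of p75NTRko against WT, with a log2 difference of -0.12 (SE 0.0885, adjusted p 0.637, edgeR). The ratio of Aplp1 to Aplp2 was 0.947 to 1.02 in 5xFAD, 1.05 to 1.124 in WT, 1.02 to 1.23 with the p75NTRko label and 0.950 to 1.14 in the double genotype, which spanned the 5xFAD and WT ranges.

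**Figure D2:**
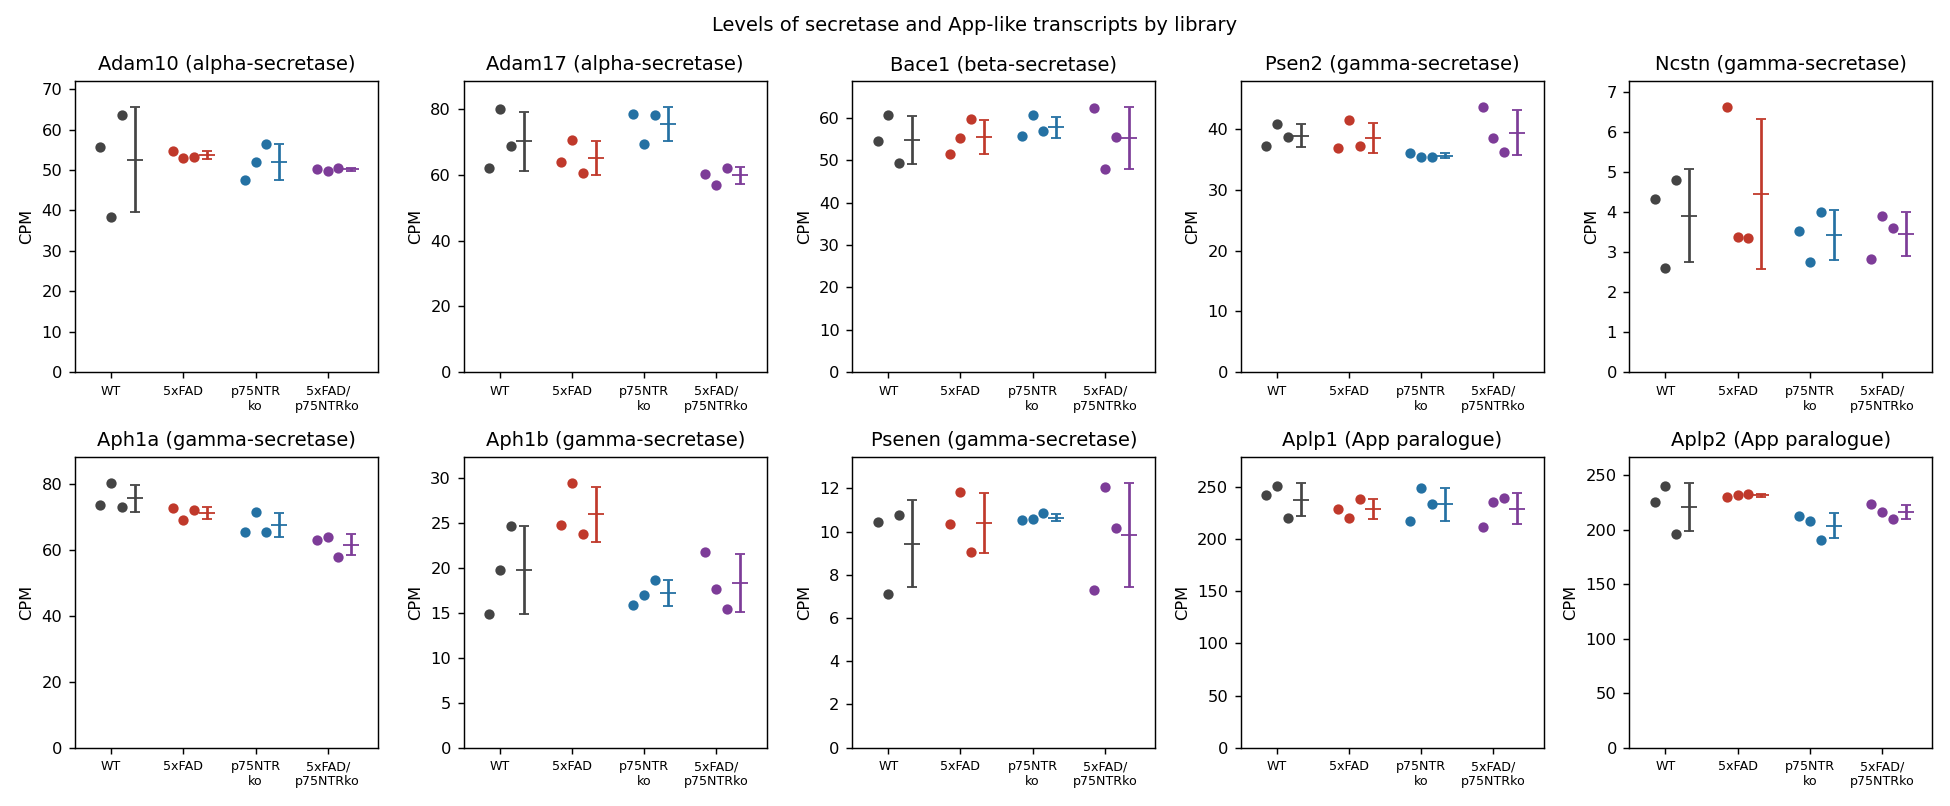
CPM of the 10 members by genotype, each axis starting at 0; points are libraries and bars the mean ± SD of 3. The genotype means of Bace1 lie within 54.8 and 57.8 CPM, while Aph1a is lowest in 5xFAD/p75NTRko and Aph1b highest in 5xFAD.

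Counts of members were then set beside all genes tested. By edgeR, 0 of 10 members passed in 5xFAD against WT, where 0.0536% of all genes did, and 1 (Aph1b) had an unadjusted p under 0.05, as did 13.9% of all genes. In p75NTRko against WT 0 members passed beside 0% of genes, and 0 members beside 11.5% of genes had an unadjusted p under 0.05. In 5xFAD/p75NTRko against 5xFAD the counts were 0 beside 0.0383%, and 2 (Aph1a and Aph1b) beside 5.08%. Against p75NTRko they were 0 beside 0%, and 1 (Adam17) beside 6.59%. Against WT they were 0 beside 0%, and 1 (Aph1a) beside 9.95%. The interaction gave 0 beside 0.0383%, and 0 beside 9.32%. The test of any difference among the 4 genotypes gave 0 beside 0.0995%, and 3 (Aph1a, Aph1b and Adam17) beside 10.4%. Their adjusted p-values there were 0.446, 0.428 and 0.473 by edgeR. The comparisons share libraries and are not independent.

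Separation of libraries was counted in the same way, for pairs of genotypes only. How many genes separate a genotype from all other libraries, or from all receptor-labelled ones, was not counted. In 5xFAD/p75NTRko against 5xFAD, 4 members (Aph1a, Aph1b, Adam10 and Aplp2) were lower with no overlap, where 6.03% of all genes were, and 0 were higher beside 5.2%. There, 9 of 10 members had a negative log2 difference, as did 47.2% of all genes, with a median of -0.10 against 0.01 over all genes. The members with a negative difference numbered 4 in 5xFAD against WT (50.4% of all genes), and 7 in each of the remaining tests with a direction, beside 46.7% to 50.1% of all genes. In 5xFAD/p75NTRko against WT and against p75NTRko, Aph1a and Adam17 were lower without overlap, beside 5.53% and 5.74% of genes (11.5% and 12.3% in either direction), none was higher against WT, beside 5.95%, and Psen2 was higher against p75NTRko, beside 6.53%. Aph1a was also lower in 5xFAD against WT, beside 9.01% of genes (19.6% in either direction), and Aph1a and Psen2 in p75NTRko against WT, beside 8.49%, where none was higher, beside 7.94%.

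The sizes of the differences were set beside all genes too. The members' median absolute log2 difference was 0.08 in 5xFAD against WT and 0.12 in p75NTRko against WT, against 0.18 and 0.17 over all genes tested. In 5xFAD/p75NTRko against 5xFAD, p75NTRko and WT it was 0.10, 0.09 and 0.06, against 0.13, 0.13 and 0.16. The genes were not matched for level. By mean level, 7 of 10 members lay at percentiles 62.2 to 93.4 of all genes tested, and Ncstn, Psenen and Aph1b at 14.3 to 46.9. For 7 of 10 members (Bace1, Psen2, Aph1a, Adam10, Adam17, Aplp1 and Aplp2), the 95% intervals of all 5 pairwise comparisons, not corrected for their number, lay within 1.5-fold in both directions. For Ncstn, Aph1b and Psenen they did not. The biological coefficient of variation, the spread between libraries beyond counting noise, was 7.85% to 12.4% for those 7, and 14.5%, 14.7% and 21.7% for Aph1b, Psenen and Ncstn, with a median of 13.2% over all genes.

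**Figure D3:**
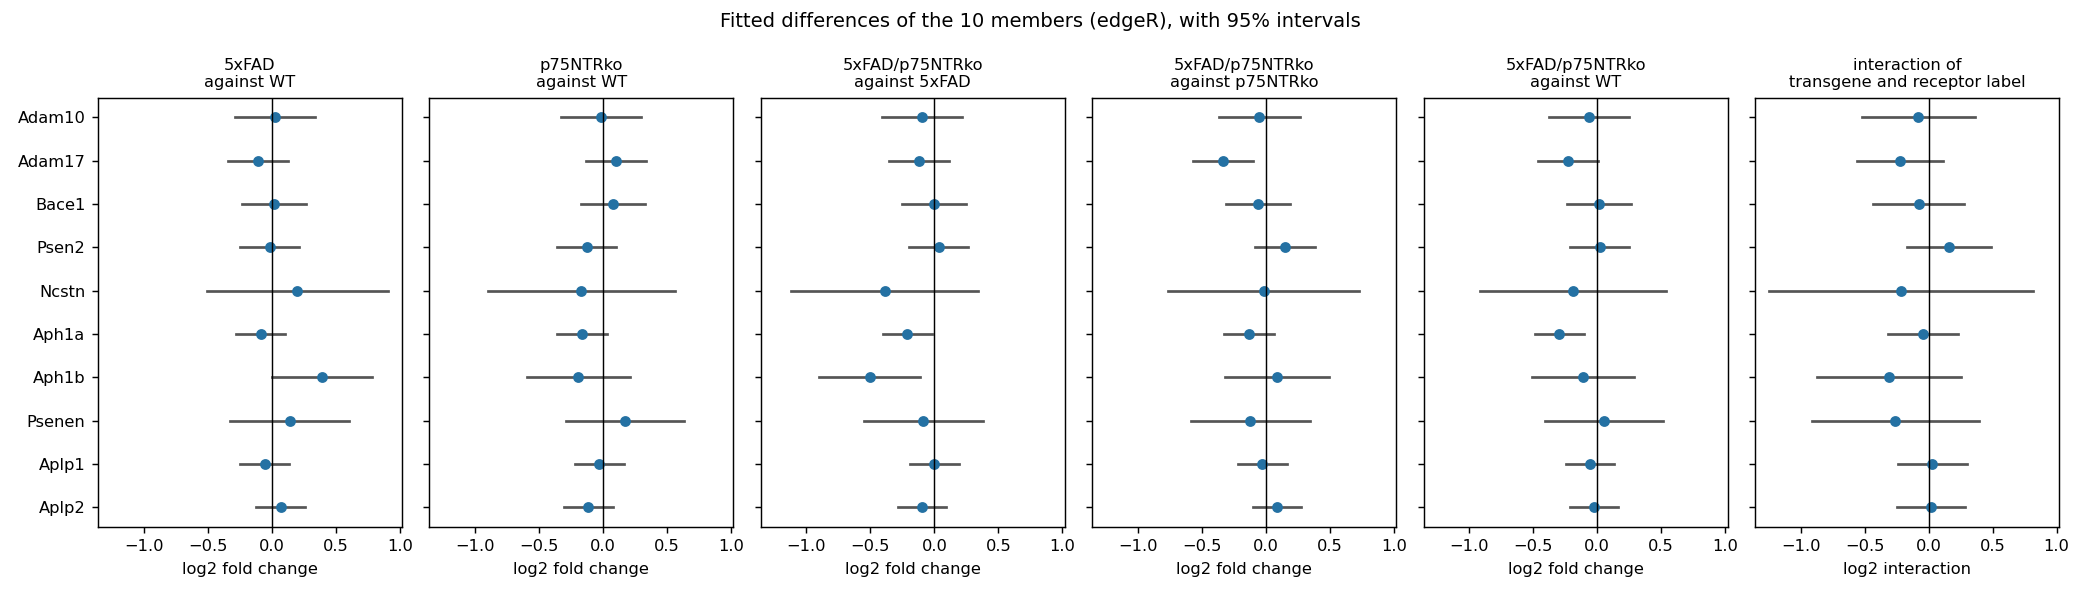
Fitted log2 fold changes (points) and 95% intervals (lines) of the 10 members in 5 pairwise comparisons and the interaction, from edgeR over all 12 libraries. The widest intervals are those of Ncstn, and the intervals of Aplp1 stay between -0.24 and 0.19 in the pairwise panels.

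For each member, the gene most alike over the 12 libraries was found by Pearson's r of log2 CPM, as a description of the highest of all genes tested. The closest match was Dag1 to Aph1b, with r of 0.96, Spearman's rho of 0.97 and r of 0.95 without the 2 libraries of most extreme Dag1. Dag1, which encodes dystroglycan, had 50.8 CPM ± 7.44 across 5xFAD, 40.0 ± 6.72 across WT, 37.4 ± 3.73 with the p75NTRko label and 35.9 ± 4.93 in the double genotype (SD, n = 3 each). For the other 9 members the highest r was 0.85 to 0.93, as between Aplp1 and Stxbp2, and for Psenen and Ccdc32 it fell from 0.93 to 0.62 without 2 libraries. Points share library depth and composition.

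The remaining genes of the pathway were taken as 5 lists, and 2 genes, Ngfr and Ide, passed in any comparison. Over all genes tested, 0% to 0.0995% passed in a test. The lists were chosen with earlier results of these data known, so these 2 genes are no result about their lists. Of 15 genes for App, its adaptors and related enzymes, all were tested and 0 passed in any of the 7 tests. Dab1, an adaptor of App-family tails, had 120 CPM ± 9.24 in 5xFAD against 92.6 ± 2.12 in WT (SD, n = 3 each), with a log2 difference of 0.37 (adjusted p 0.261, edgeR). Apbb3, a nuclear adaptor of App, had -0.41 in p75NTRko against WT (adjusted p 0.372, edgeR). Of 15 regulators of alpha-secretases, 13 were tested and 0 passed. Timp3, a secreted inhibitor of Adam17 and Adam10, averaged 784 CPM ± 146 across WT, 565 ± 88.3 across 5xFAD, 592 ± 76.7 with the p75NTRko label and 525 ± 83.7 in the double genotype (SD, n = 3 each), with a log2 difference of -0.58 in the last against WT (adjusted p 0.368, edgeR). Timp2, another metalloprotease inhibitor, had -0.58 in p75NTRko against WT (adjusted p 0.342, edgeR).

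Of 18 trafficking and assembly factors, all were tested and 0 passed. Vps35, the retromer subunit that returns App and its receptors from endosomes, had 191 CPM ± 8.95 in 5xFAD against 157 ± 6.13 in WT (SD, n = 3 each), with a log2 difference of 0.29 (adjusted p 0.213, edgeR). Sorcs2, a sorting receptor that pairs with p75NTR, had -0.34 in p75NTRko against WT (adjusted p 0.380, edgeR). Of 22 other secretase substrates, 20 were tested and 1, Ngfr, passed, in 5xFAD/p75NTRko against 5xFAD with a log2 difference of 3.0 (adjusted p 0.0478, edgeR), the rise already described as running against its label, and in the test of any difference (adjusted p 0.0133). The pairwise call was lost under 12 of 18 alternatives, with a log2 difference of 2.76 to 3.48 throughout, among them the replicate block (adjusted p 0.119, edgeR), the Xist class as a term (0.999) and leaving out any 1 library of 5xFAD or of p75NTRko, WT replicate 1, or 5xFAD/p75NTRko replicate 2 or 3 (0.0536 to 0.334). DESeq2 gave no adjusted p for it. The overall call was lost under 5 of 18 alternatives, including the replicate block (adjusted p 0.0503, edgeR) and leaving out WT replicate 1, 5xFAD replicate 2 or 3, or p75NTRko replicate 2 (0.0530 to 0.0674). L1cam, a neural adhesion molecule shed by these enzymes, had 122 CPM ± 4.90 in 5xFAD/p75NTRko against 90.4 ± 5.30 with the p75NTRko label (SD, n = 3 each), with a log2 difference of 0.43 (adjusted p 0.265, edgeR). Of 8 enzymes that degrade amyloid-beta, 7 were tested and 1, Ide (insulin-degrading enzyme), passed: it rose in 5xFAD against WT by 1.08 on the log2 scale (adjusted p 0.000905, edgeR) and fell by 0.87 in the double genotype relative to 5xFAD (adjusted p 0.0140, edgeR). With the Xist class as a term neither passed, with an adjusted p of 0.290 for the first and 0.699 for the second by edgeR, at log2 differences of 1.19 and -0.97. That term, here and for Ngfr, rests on p75NTRko replicate 1 against p75NTRko replicates 2 and 3. The first passed under 18 of 19 alternatives. The second was also lost with the replicate block (adjusted p 0.0582, edgeR) and without any 1 library of 5xFAD or 5xFAD/p75NTRko replicate 2 or 3 (0.102 to 0.140). Ide also passed the test of any difference (adjusted p 0.000709, edgeR). It did so under all 18 alternatives, with an adjusted p of 0.0291 by edgeR with the Xist class as a term. Its level was 27.7 CPM ± 0.979 across WT, 58.7 ± 0.616 across 5xFAD, 26.5 ± 1.52 with the p75NTRko label and 32.2 ± 3.52 in the double genotype (SD, n = 3 each). Ace, another peptidase that can cleave amyloid-beta, was 10.04 CPM ± 2.21 in WT against 5.29 ± 2.97 across 5xFAD libraries (SD, n = 3 each), with a log2 difference of -0.89 (adjusted p 0.432, edgeR). In 5xFAD against WT the 5 lists had medians of 0.01, -0.14, -0.01, 0.05 and -0.12 in the order given, against -0.00 over all genes.

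**Figure D4:**
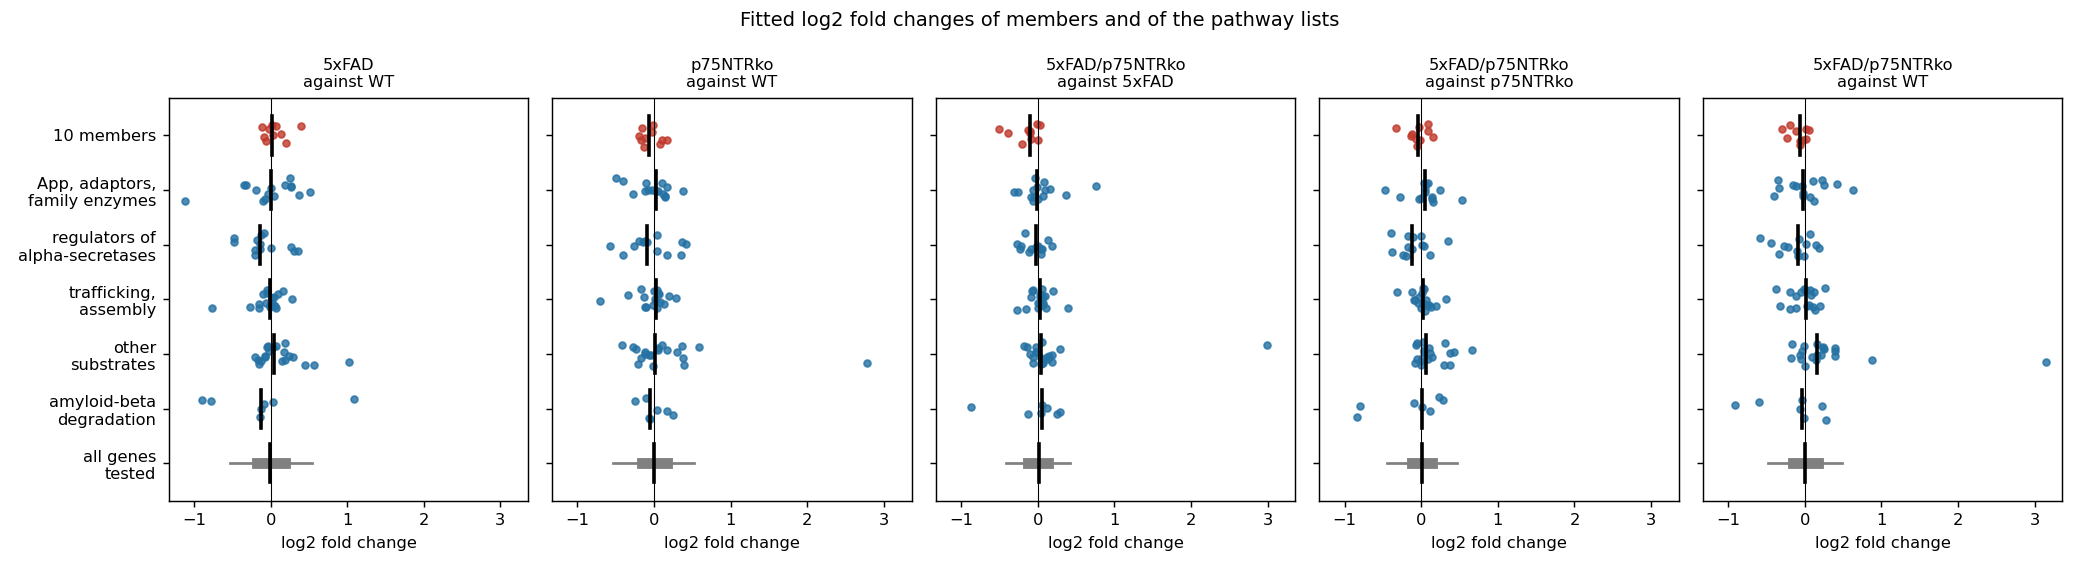
Fitted log2 differences of the members (red) and of the tested genes of 5 pathway lists (blue), with medians as black bars; for all 13065 genes tested, the thick grey bar runs from the 25th to the 75th percentile and the thin line from the 5th to the 95th. Each panel is 1 of the 5 pairwise comparisons. The members lie between -0.51 and 0.40, and the points named in the text as past the threshold are Ngfr among substrates (3.0 in 5xFAD/p75NTRko against 5xFAD) and Ide among degrading enzymes (1.08 in 5xFAD against WT).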

How the data were processed

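QuantSeq 3′ mRNA libraries were made from total RNA with an RNA integrity number above 7 and 14 amplification cycles, per the labels' protocols. The authors deposited whole-number counts of reads per gene. The submitters' processing notes name FastQC, HISAT2, SAMtools, HTSeq, edgeR and mm10; versions, annotation and strand setting are not given in the sources used here. Of all reads, 32.2% to 38.5% were assigned to genes, and 28.9% to 33.5% fell in no feature; the 5 summary lines of the table were left out.

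All 12 libraries were fitted in edgeR 4.0.16 (R 4.3.3; TMM scaling, filterByExpr by genotype, quasi-likelihood F tests, Benjamini-Hochberg adjustment over 13065 genes, threshold 0.05), giving 5 pairwise comparisons, the interaction and an overall test. The steps were tested on simulated data. Intervals are 95%, from the fit. Non-overlap means that all 3 libraries of a genotype lie beyond all 3 of the other. Alternatives were DESeq2 1.42.0, RLE factors, no filter, only the genotypes compared, the replicate number as a block, the Xist class (above or below 50 CPM) as a term, leaving out each library, and, chosen after seeing the data, leaving out the 2 carriers of low Thy1 and repeating all of these for Ide and Ngfr.

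Members and lists were chosen with earlier results of these data known. Named were all members, each with the comparison of its smallest p, App, Thy1 and Ngfr as checks, pathway genes past the threshold, otherwise the 2 of smallest overall p per list, and the gene most alike to each member. Gene positions are from GENCODE M21 and promoters from RefSeq. Sums, shares and ratios of members, and values of overlapping genes, were added after the data were seen.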

Additional observations from a re-analysis of the deposited data

How the results depend on the processing

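Across the alternatives, all 131 counts of members past the threshold stayed at 0, with the smallest member's adjusted p at 0.116 (5xFAD against WT, without WT replicate 3). Leaving out each library in turn kept these counts at 0 in all 7 tests. Of 189 log2 differences of single members under alternatives, 187 kept their direction, and none of these or of 180 overall adjusted p-values crossed the threshold. The 189 include runs that left out a library of a genotype not compared. Such runs leave a pairwise difference nearly as fitted, so they are no test of its direction. Adam10 in 5xFAD/p75NTRko against 5xFAD turned from -0.10 to 0.0932 on the log2 scale with the Xist class as a term. Only p75NTRko holds both classes, so that term is set by its replicate 1 against replicates 2 and 3. Adam10 was 47.6 CPM in that replicate 1, and 51.9 and 56.4 CPM in replicates 2 and 3. An effect of the class within the other genotypes could not be estimated. Ncstn in the same comparison ranged from -0.56 to 0.0263 when libraries were left out, turning positive without 5xFAD replicate 1. With the replicate number as a block, 0 members passed in any test. To compare replicate numbers, each library's log2 CPM was taken as its deviation from the mean of its genotype. These deviations were correlated between libraries of different genotypes. Of 18 same-numbered pairs, 2 had r above 0.1 (range -0.42 to 0.14). Of 36 differently numbered pairs, 8 did (range -0.22 to 0.34). The deviations within a genotype sum to 0 for each gene, so these r are not independent. The labels do not say whether a replicate number marks a batch, and this was not tested. Over all genes, calls ranged under alternatives from 0 to 98 in 5xFAD against WT (7 as fitted), 0 to 55 in p75NTRko against WT (0), 0 to 20 (5), 0 to 37 (0) and 0 to 30 (0) in 5xFAD/p75NTRko against 5xFAD, p75NTRko and WT, 0 to 25 for the interaction (5) and 1 to 181 overall (13). Ncstn (12 to 39 counts a library) and Psenen (43 to 73) had the fewest counts, and also the largest spread between libraries beyond counting noise (21.7% and 14.7%).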
